A study of Mus with 10 samples.

Results

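The 51 keratin-associated protein genes measured in mouse skin, out of 22180 measured genes, are described here on arrays from control skin and from skin given PUVA. PUVA is a psoralen, a compound activated by light, followed by UVA light. The genes were taken by name: every gene whose symbol begins with Krtap and that had a probe set naming 1 gene only, with the probe set of highest mean used where a gene had more than 1. They fell into 24 subfamilies by the number after Krtap, from Krtap1 to Krtap31. A further 4 genes, Krtap2-4, Krtap3-2, Krtap3-3 and Krtap15, had only probe sets that name several genes, and are not among the 51. All samples were skin of female BALBc mice, labelled as 7-8 weeks of age. The groups were 2 controls, 4 samples labelled PUVA 3D (a gap of 3 days, the 3-day group) and 4 labelled PUVA 7D (a gap of 7 days, the 7-day group), with UVA at 0.25 J/cm2 given 2 times a week for 2 weeks. A protocol shared by all samples also describes IMQ, taken here as imiquimod, which causes a psoriasis-like dermatitis, after that gap. Which of the arrayed samples received it, and what the controls received, is not stated in the labels. The question put by the design is how PUVA-pretreated skin differed from control skin at either gap.

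Keratin-associated proteins fill the space between the keratin filaments of the hair shaft and are crosslinked to them by disulphide bonds, which gives hair its strength. They are small proteins from many short genes, and are grouped into high-sulphur and ultra-high-sulphur families, which are rich in cysteine, and high-glycine-tyrosine families. In the skin they are made by the shaft-forming cells of growing hair follicles, after the hair keratins have begun to be made. Their genes lie in clusters of close relatives, so that probes for 1 member can also bind transcripts of another. Values of single members within a subfamily are uncertain for that reason.

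Array medians over all probe sets ran from 5.83 to 5.86 on what is read here as a log2 scale. The labels do not state whether each sample was 1 animal, so the p-values describe the spread among these arrays, which may be technical. As a check of the tissue, the keratinocyte markers Krt14, Krt10, Krt1, Lor, Ivl, Krt15 and Flg2 had a mean value of 11.63 and 11.43 in the controls and 11.38 to 11.71 on the PUVA arrays, and none of them was below the lower quartile of all genes on every array. Control replicate 2 stood apart from the other 9 arrays in the keratin-associated protein genes, and each control is therefore given on its own.

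The keratin-associated protein genes lay higher on control replicate 2 than on any other array, while control replicate 1 lay close to the PUVA arrays. Their median value was 5.14 on control replicate 2 and 4.10 on control replicate 1. It was 3.89, 3.80, 4.06 and 3.71 on the 3-day arrays and 3.84, 3.89, 3.78 and 3.87 on the 7-day arrays. The 3-day and 7-day medians overlapped, and both controls were above all 8 PUVA arrays, control replicate 1 by less than the spread among the 3-day arrays. Control replicate 2 gave the highest of the 10 values in 31 of the 51 genes, and control replicate 1 in 4. Over all genes, control replicate 2 gave the highest value in 11.5%. The difference between the controls, replicate 2 minus replicate 1, had a median of 0.55 over the 51 genes and reached 3.88 in Krtap8-1, against a median of -0.01 over all genes. It was above 0 in 41 genes (background 47.8%) and above 1 in 18 (background 0.604% of all genes). Markers of proliferating cells and of melanocytes also had their highest mean on control replicate 2, at 7.99 and 7.50, against 7.35 and 6.22 on control replicate 1, and their part in these values was not tested.

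Set against the range of the 8 PUVA arrays, control replicate 2 was above the range in 34 genes (background 12.2%), within it in 14 (background 73.9%) and below it in 3 (background 13.9%). Control replicate 1 was above it in 14 genes (background 8.32%), within it in 35 (background 82.5%) and below it in 2 (background 9.14%). Both controls were above all PUVA arrays in 13 genes (background 2.22%). These are Krtap1-4, Krtap4-2, Krtap4-16, Krtap5-1, Krtap7-1, Krtap8-1, Krtap9-1, Krtap9-3, Krtap10-4, Krtap11-1, Krtap12-1, Krtap13 and Krtap14. In a further 21 genes only control replicate 2 was above them (background 9.97%), and in 1 gene, Krtap20-2, only control replicate 1 was (background 6.1%). Whether fewer follicle cells or less RNA per cell set such a level cannot be told apart in whole skin.

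**Figure D1:**
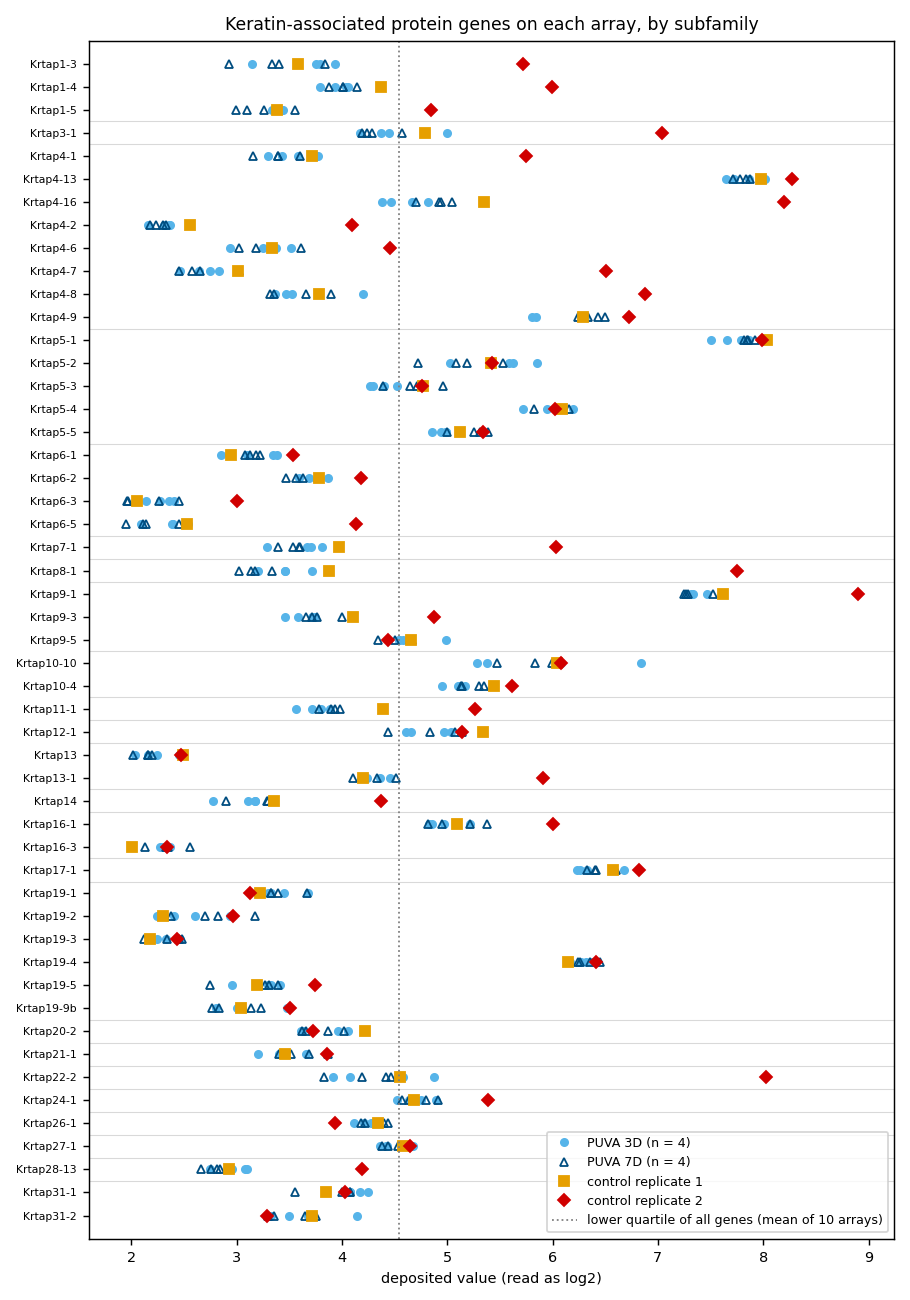
Deposited values (x axis, read as log2) of the 51 keratin-associated protein genes (rows, by subfamily) on each of the 10 arrays; squares and diamonds are the controls, circles and triangles the 3-day and 7-day PUVA arrays, and the dotted line is the lower quartile of all genes. Control replicate 2 stands to the right of all PUVA arrays in 34 genes, and control replicate 1 in 14.

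Most of the genes were dim outside control replicate 2. A gene was called dim on an array when it lay below the lower quartile of all genes there, which was 4.49 to 4.57, because the table gives no background or detection call. On control replicate 2, 21 of the 51 genes were dim, on control replicate 1 it was 31, and on the PUVA arrays 33 to 36. There were 31 genes dim on all 8 PUVA arrays (background 21.3%) and 20 dim on all 10 arrays (background 20.9%). Another 11 were dim on every array but control replicate 2 (background 0.289%), and 13 were dim on none (background 70.9%). For dim genes a log2 difference from control may be a lower bound, since signal over background was not analysed here.

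In the high-sulphur families, the members of Krtap1 and Krtap3, proteins of the hair cortex, were all higher on control replicate 2 than on every PUVA array. Krtap3-1 read 4.79 and 7.04 on control replicates 1 and 2, 4.17, 4.45, 4.99 and 4.37 on the 3-day arrays and 4.24, 4.28, 4.19 and 4.57 on the 7-day arrays. Replicate 2 was 2.24 above control replicate 1, which lay within the range of the 3-day arrays and above the 7-day arrays. Krtap1-4 read 4.37 and 5.99 on control replicates 1 and 2, 4.04, 4.06, 3.79 and 3.93 on the 3-day arrays and 3.88, 4.14, 4.01 and 4.01 on the 7-day arrays. Here both controls were above all 8 PUVA arrays, replicate 1 by 0.23. Krtap1-3 had 3.58 and 5.72 in the controls against 2.92 to 3.94 on the PUVA arrays, and Krtap1-5 had 3.38 and 4.84 against 2.99 to 3.55. In these 2 genes control replicate 1 lay inside the PUVA range.

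Krtap11-1 read 4.39 and 5.26 on control replicates 1 and 2, 3.89, 3.80, 3.71 and 3.56 on the 3-day arrays and 3.98, 3.78, 3.93 and 3.90 on the 7-day arrays. This gene, for a high-sulphur protein of the cortex, had both controls above all PUVA arrays without overlap, replicate 1 by 0.41, the widest such margin for control replicate 1 among the 51 genes. Its fitted change was -1.09 ± 0.19 (SE) in the 3-day and -0.93 ± 0.19 (SE) in the 7-day group against control, and it had the smallest p of the 51 genes in both (limma adjusted p of 0.117 and 0.71), which did not pass 0.05. Without control replicate 2 the changes were -0.65 and -0.49. Krtap14, at 3.36 and 4.37 in the controls and 2.78 to 3.34 on the PUVA arrays, also had both controls on top, replicate 1 by 0.023. Krtap13-1 had 4.20 and 5.91 in the controls and 4.11 to 4.52 on the PUVA arrays, so that control replicate 2 alone stood out. Krtap13 had 2.50 and 2.47 in the controls and 2.01 to 2.46 on the PUVA arrays, was dim on all arrays, and differed between the controls by -0.03 only.

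Krtap24-1, Krtap26-1 and Krtap27-1, on the same chromosome as Krtap11-1, did not share a pattern. Krtap24-1 had 4.68 and 5.39 in the controls and 4.52 to 4.91 on the PUVA arrays, with control replicate 2 above the range. Krtap26-1, at 4.34 and 3.93 against 4.12 to 4.43, was lowest on control replicate 2. Krtap27-1, at 4.58 and 4.65 against 4.36 to 4.67, had both controls within the PUVA range.

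Among the ultra-high-sulphur families, Krtap4 was higher on control replicate 2 than on all PUVA arrays in 8 of 8 members (background 12.2%). In 6 of them it was above control replicate 1 by more than 1 (background 0.604%). Krtap4-16 read 5.35 and 8.19 on control replicates 1 and 2, 4.67, 4.38, 4.82 and 4.47 on the 3-day arrays and 4.94, 4.71, 5.04 and 4.92 on the 7-day arrays. Both controls were above the PUVA arrays, replicate 2 by 3.15 and replicate 1 by 0.30. Krtap4-7 read 3.01 and 6.51 on control replicates 1 and 2, 2.64, 2.47, 2.75 and 2.83 on the 3-day arrays and 3.02, 2.65, 2.58 and 2.45 on the 7-day arrays. Control replicate 2 was the one array on which this gene was not dim, and control replicate 1 overlapped with the 7-day arrays. Krtap4-8 read 3.78 and 6.87 on control replicates 1 and 2, 3.47, 3.52, 4.20 and 3.36 on the 3-day arrays and 3.32, 3.89, 3.36 and 3.66 on the 7-day arrays. Control replicate 1 lay inside the 3-day range here. Krtap4-1, at 3.72 and 5.75 in the controls and 3.16 to 3.77 on the PUVA arrays, and Krtap4-2, at 2.56 and 4.09 against 2.16 to 2.37, had the same order of the controls. Krtap4-6 had 3.33 and 4.46 against 2.94 to 3.61. The 2 members with the smallest difference between the controls were Krtap4-9, at 6.29 and 6.72 against 5.81 to 6.50, and Krtap4-13, at 7.98 and 8.27 against 7.65 to 8.01. Neither was dim on any array. On 2 probe sets that name Krtap4-13 among other genes, left out here, control replicate 2 was 1.63 and 0.66 above control replicate 1.

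Of the 3 members of Krtap9, also ultra-high in sulphur, 2 had both controls above all PUVA arrays (background 2.22%). Krtap9-1 read 7.62 and 8.90 on control replicates 1 and 2, 7.32, 7.33, 7.47 and 7.25 on the 3-day arrays and 7.29, 7.27, 7.25 and 7.52 on the 7-day arrays. Both controls were above all PUVA arrays, replicate 2 by 1.38 and replicate 1 by 0.10. Krtap9-3 read 4.10 and 4.87 on control replicates 1 and 2, 3.58, 3.46, 3.75 and 3.71 on the 3-day arrays and 4.01, 3.66, 3.76 and 3.71 on the 7-day arrays. Both controls were again on top, and the 3-day and 7-day arrays overlapped. Krtap9-5, at 4.65 and 4.43 in the controls and 4.35 to 4.99 on the PUVA arrays, had both controls within the PUVA range.

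Krtap5 and Krtap10, families known from the hair cuticle, showed small differences between the controls in the chosen probe sets. Over the 5 Krtap5 members the difference of replicate 2 minus replicate 1 had a median of -0.01 and ran from -0.07 to 0.21. Krtap5-1 read 8.03 and 7.98 on control replicates 1 and 2, 7.51, 7.65, 7.87 and 7.79 on the 3-day arrays and 7.92, 7.85, 7.81 and 7.85 on the 7-day arrays. Both controls were above all PUVA arrays, and they differed from each other by less than the PUVA arrays did among themselves. A second probe set for Krtap5-1, left out for its lower mean, read 6.45 and 8.08 in the controls and 6.15 to 6.64 on the PUVA arrays. The probe sets of this gene thus disagreed: in the second, control replicate 2 was 1.63 above replicate 1, which lay within the PUVA range. Krtap5-2 had 5.41 and 5.42 in the controls and 4.73 to 5.85 on the PUVA arrays, Krtap5-3 had 4.77 and 4.76 against 4.27 to 4.96, and Krtap5-4 had 6.09 and 6.02 against 5.72 to 6.20. In these 3 genes both controls were within the PUVA range.

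Krtap10-4 read 5.44 and 5.62 on control replicates 1 and 2, 5.11, 5.17, 5.10 and 4.95 on the 3-day arrays and 5.14, 5.35, 5.13 and 5.30 on the 7-day arrays. Both controls were above all PUVA arrays and 0.18 apart. A brighter probe set, left out because it names Krtap10-4 among other genes, read 8.35 and 9.05 in the controls and 7.89 to 8.43 on the PUVA arrays. There the controls were 0.71 apart, and control replicate 1 lay within the PUVA range. Krtap10-10 had 6.04 and 6.08 in the controls and spread from 5.28 to 6.84 on the PUVA arrays, with 3-day replicate 1 the highest. Krtap12-1, on the same chromosome as the Krtap10 genes, had 5.34 and 5.14 against 4.44 to 5.14. Control replicate 1 was the highest array, and control replicate 2 was level with the highest PUVA array to 2 decimals. Krtap17-1 had 6.57 and 6.82 against 6.23 to 6.68, with control replicate 2 on top and replicate 1 inside the PUVA range.

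The high-glycine-tyrosine families held both the largest and some of the smallest differences between the controls. Krtap8-1 read 3.88 and 7.75 on control replicates 1 and 2, 3.20, 3.46, 3.71 and 3.46 on the 3-day arrays and 3.17, 3.14, 3.02 and 3.33 on the 7-day arrays. Control replicate 2 was 4.04 above the highest PUVA array and control replicate 1 was 0.16 above it. Krtap22-2 read 4.55 and 8.02 on control replicates 1 and 2, 3.92, 4.58, 4.87 and 4.08 on the 3-day arrays and 3.83, 4.47, 4.19 and 4.42 on the 7-day arrays. Of the 10 arrays, control replicate 2 alone was high, and replicate 1 lay inside the 3-day range. Krtap7-1 read 3.97 and 6.03 on control replicates 1 and 2, 3.29, 3.70, 3.81 and 3.66 on the 3-day arrays and 3.39, 3.59, 3.60 and 3.54 on the 7-day arrays. Both controls were above all PUVA arrays in this gene.

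Krtap6 was higher on control replicate 2 than on all PUVA arrays in 4 of 4 members (background 12.2%). By the chosen probe sets, control replicate 2 was more than 1 above control replicate 1 only in Krtap6-5. Krtap6-5 had 2.53 and 4.13 in the controls and 1.95 to 2.54 on the PUVA arrays. Krtap6-1 had 2.95 and 3.53 against 2.86 to 3.38, Krtap6-2 had 3.78 and 4.18 against 3.47 to 3.87, and Krtap6-3 had 2.05 and 3.0 against 1.96 to 2.45. In all 4 members control replicate 1 lay within the PUVA range, and all 4 were dim on all 10 arrays. A brighter probe set that names Krtap6-1 among other genes differed. It read 6.81 and 9.74 in the controls, both above the PUVA range of 5.83 to 6.58.

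The 6 Krtap19 members differed between the controls by -0.09 to 0.66. Of them 2, Krtap19-5 and Krtap19-9b, were above all PUVA arrays on control replicate 2 (background 12.2%). Krtap19-5 had 3.20 and 3.75 in the controls and 2.75 to 3.41 on the PUVA arrays, and Krtap19-9b had 3.04 and 3.51 against 2.76 to 3.48. Krtap19-1 read 3.22 and 3.13 on control replicates 1 and 2, 3.33, 3.45, 3.68 and 3.30 on the 3-day arrays and 3.33, 3.33, 3.67 and 3.39 on the 7-day arrays. Both controls were below all PUVA arrays, and Krtap19-1 was the only one of the 51 genes with that order. Krtap19-4, not dim on any array, had 6.15 and 6.41 against 6.16 to 6.45, with control replicate 1 the lowest array. Krtap19-2, at 2.30 and 2.97 against 2.24 to 3.17, and Krtap19-3, at 2.18 and 2.44 against 2.13 to 2.48, had both controls within the PUVA range. So did Krtap21-1, at 3.46 and 3.86 against 3.20 to 3.87. Krtap20-2 had 4.22 and 3.73 against 3.62 to 4.06, with control replicate 1 the highest array.

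The remaining members were spread over 3 subfamilies. Krtap16-1 had 5.09 and 6.0 in the controls and 4.82 to 5.37 on the PUVA arrays, and Krtap28-13 had 2.92 and 4.19 against 2.66 to 3.10. In both, control replicate 2 alone was above the PUVA range. Krtap16-3 had 2.0 and 2.34 against 2.0 to 2.56, and Krtap31-1 had 3.85 and 4.03 against 3.55 to 4.25. Krtap31-2, at 3.72 and 3.29 against 3.30 to 4.14, was lowest on control replicate 2. No control was above the PUVA range in these 3 genes.

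**Figure D2:**
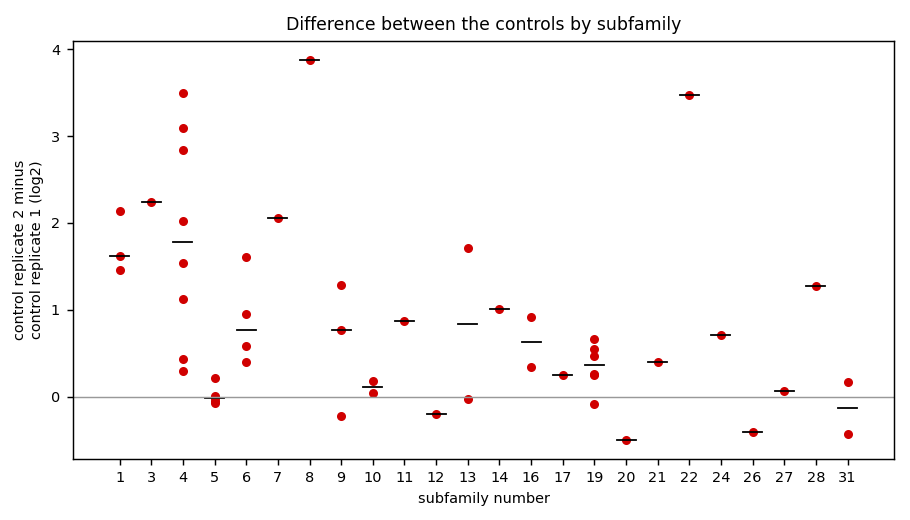
Difference between the controls, replicate 2 minus replicate 1 (y axis, log2), for each keratin-associated protein gene (points) by subfamily number (x axis), with the median of each subfamily as a line. The largest values are those of Krtap8-1 (3.88), Krtap4-7 (3.50) and Krtap22-2 (3.47), and the 5 Krtap5 genes lie between -0.07 and 0.21.

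By chromosome in RefSeq's GRCm38.p6 annotation, which held all 51 genes, they fell into 5 groups, called neighbourhoods here. The order of genes within a chromosome was not used for these groups. The one with Krtap1, 3, 4, 9, 16-1, 17 and 31 held 19 genes. Of these, 16 were above all PUVA arrays on control replicate 2 (background 12.2%). The median difference between the controls was 1.28 there. The one with Krtap6, 7, 8, 11, 13, 14, 16-3, 19 to 22, 24, 26 and 27 held 23 genes, with a median difference of 0.55. Of these, 14 were above the PUVA arrays on control replicate 2 (background 12.2%). The 5 Krtap5 genes had a median difference of -0.01 and the 3 genes of Krtap10 and Krtap12 had 0.04. On control replicate 2, 1 and 2 of them were above the PUVA arrays (background 12.2%), and 1 of 5 is near that share. Krtap28-13 lay on its own, with a difference of 1.27. These are descriptions, since the difference between neighbourhoods was not tested.

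In the first comparison, of the 3-day group with control, the fitted log2 changes of the 51 genes had a median of -0.34, against 0.00 over all genes, and ran from -2.36 in Krtap8-1 to 0.26 in Krtap19-1. They were below 0 in 43 genes (background 49.4%) and above it in 8 (background 50.6%). No gene of the 51 passed an adjusted p of 0.05 in limma (background 0.00451%), and the smallest was 0.117. At an unadjusted limma p under 0.05 there were 27 lower genes (background 4.07%) and 0 higher ones (background 5.67%). All 4 arrays of the 3-day group were below both controls in 16 genes (background 7.89%) and above both in 2, Krtap19-1 and Krtap31-1 (background 9.52%). The highest fitted changes were 0.26 ± 0.13 (SE) in Krtap19-1 and 0.20 ± 0.14 in Krtap31-1, each with a limma adjusted p of 0.547 or more. The fit takes 1 spread per gene over all groups, whereas the median SD over the 51 genes was 0.39 among the controls, 0.18 among the 3-day arrays and 0.17 among the 7-day arrays. Where the controls lay further apart than the PUVA arrays, the errors given for differences from control thus understate the spread of the controls. Some members went the other way. Krtap5-2 had an SD of 0.01 among the controls, 0.35 among the 3-day arrays and 0.33 among the 7-day arrays.

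These values rested largely on control replicate 2. Without it, the median of the 51 genes was -0.14, and 7 genes were lower at an unadjusted limma p under 0.05 (background 2.99%), all of them among the 27. They were Krtap1-4, Krtap4-16, Krtap5-1, Krtap8-1, Krtap9-3, Krtap10-4 and Krtap11-1, and the smallest adjusted p was 0.357. Without control replicate 1 the median was -0.50, 29 genes were lower at an unadjusted limma p under 0.05 (background 4.78%), and 19 genes passed an adjusted p of 0.05 as lower (background 0.744%). That fit sets the single array of control replicate 2 against the 3-day group and assumes that it varies like the others. Krtap8-1, with the lowest fitted change, had -2.36 ± 0.74 (SE) with both controls and -0.42 without replicate 2. For Krtap4-16 the values were -2.19 ± 0.55 (SE) and -0.76, for Krtap4-7 -2.09 ± 0.68 and -0.34, and for Krtap22-2 -1.92 ± 0.70 and -0.19. Krtap4-8 had -1.69 ± 0.63 and -0.14, Krtap3-1 -1.42 ± 0.47 and -0.30, Krtap7-1 -1.39 ± 0.41 and -0.36, and Krtap1-4 -1.23 ± 0.32 and -0.42. The direction stayed the same in these 8 genes. In 11 others it turned from below to above 0, among them Krtap1-3, from -1.0 ± 0.47 to 0.07, and Krtap13-1, from -0.74 ± 0.34 to 0.11. In 2 genes, Krtap26-1 and Krtap31-2, it turned from above to below 0. The genes Krtap5-1 and Krtap10-4, in which the controls lay close together, kept most of their values, from -0.31 ± 0.10 to -0.33 and from -0.45 ± 0.10 to -0.36. That holds for the chosen probe sets only: the second one of Krtap5-1, with the controls 1.63 apart, went from -0.92 ± 0.34 (SE) to -0.11. On the probe set that names Krtap10-4 among other genes the controls were 0.71 apart, and no change was fitted.

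**Figure D3:**
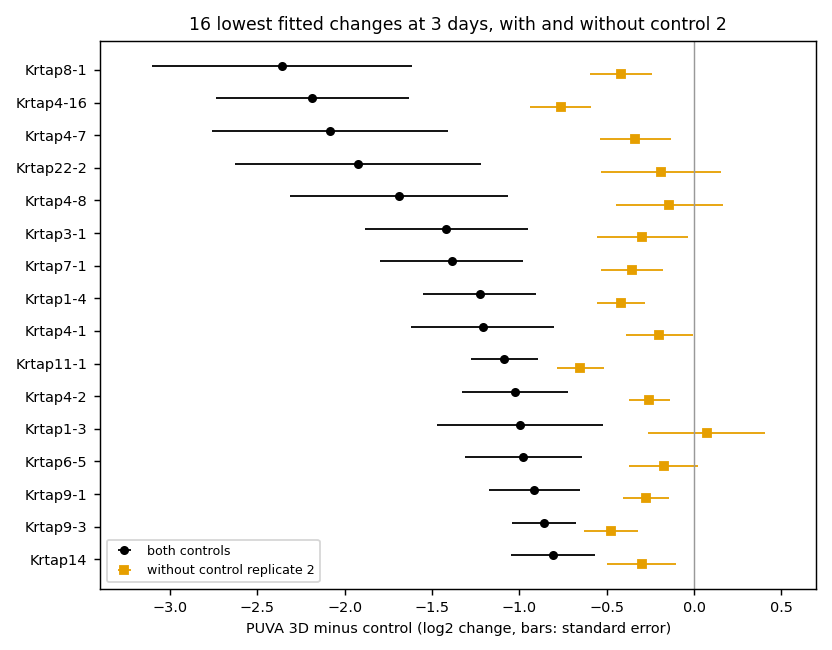
Fitted log2 change of the 3-day group against control (x axis, bars are standard errors) for the 16 keratin-associated protein genes with the lowest fitted changes (rows), with both controls (circles) and without control replicate 2 (squares). Krtap8-1 moves from -2.36 to -0.42 and Krtap11-1 from -1.09 to -0.65.

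In the second comparison, of the 7-day group with the same controls, the median of the 51 genes was -0.32, against 0.02 over all genes, with 42 below 0 (background 45%) and 9 above it (background 55%). No gene passed an adjusted p of 0.05 in limma (background 0%), with a smallest adjusted p of 0.71 in Krtap11-1. At an unadjusted limma p under 0.05 there were 23 lower genes (background 2.68%) and 0 higher ones (background 3.21%). All 7-day arrays were below both controls in 20 genes (background 5.85%) and above both in 1, Krtap19-1 (background 8.56%). The lowest fitted changes were those of Krtap8-1, at -2.65 ± 0.74 (SE), Krtap4-7, at -2.08 ± 0.68, Krtap22-2, at -2.06 ± 0.70, and Krtap4-16, at -1.87 ± 0.55. Without control replicate 2 they were -0.71, -0.33, -0.32 and -0.45, each still below 0, while 8 of the 51 genes turned from below to above 0, Krtap13-1 and Krtap24-1 among them, and 3, Krtap9-5, Krtap26-1 and Krtap31-2, from above to below. The median of the 51 genes was then -0.15, and 7 genes were lower at an unadjusted limma p under 0.05 (background 1%), all of them among the 23. They were Krtap1-4, Krtap4-2, Krtap4-16, Krtap7-1, Krtap8-1, Krtap11-1 and Krtap13. Without control replicate 1 the median was -0.52, 28 genes were lower at an unadjusted limma p under 0.05 (background 4.78%), and 19 passed an adjusted p of 0.05 as lower (background 0.884%). The first and second comparisons share their control arrays, so they do not bear on each other as separate evidence.

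**Figure D4:**
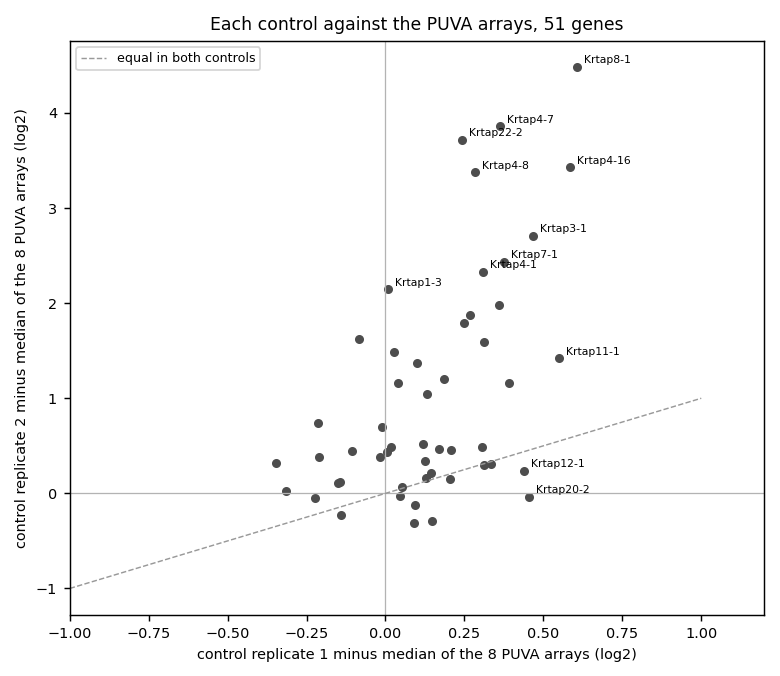
Each control minus the median of the 8 PUVA arrays (log2; x axis, control replicate 1; y axis, control replicate 2) for the 51 keratin-associated protein genes (points), with a dashed line where both controls are equal. Control replicate 1 stays within 0.61 of that median in all 51 genes, while control replicate 2 is more than 2 above it in Krtap8-1, Krtap4-7, Krtap22-2 and 6 other genes.

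The third comparison set the 7-day against the 3-day group and does not use the controls as a reference. The fitted differences of the 51 genes had a median of -0.01, against 0.01 over all genes, and ran from -0.39 in Krtap5-2 to 0.32 in Krtap4-9. They were below 0 in 27 genes (background 46.8%) and above it in 24 (background 53.2%). No gene passed an adjusted p of 0.05 (background 0.00902%). At an unadjusted limma p under 0.05 there were 3 genes higher at 7 days (background 5.33%) and 0 lower (background 4.43%). With only the PUVA arrays in the fit, which leaves out the spread of the controls, 4 were higher (background 5.29%) and 2 lower (background 4.51%). The count in either direction was also 6 without control replicate 1 or without control replicate 2. Krtap5-5 read 5.12 and 5.34 on control replicates 1 and 2, 4.95, 4.99, 4.86 and 4.99 on the 3-day arrays and 5.39, 5.26, 5.0 and 5.31 on the 7-day arrays. The 7-day arrays were all above the 3-day arrays, and Krtap5-5 was the 1 gene of the 51 without overlap in that direction (background 2.95%). In the other direction there were 0 (background 2.28%). Its difference was 0.29 ± 0.09 (SE), with a limma adjusted p of 0.377. Krtap5-3, at 0.31 ± 0.11 (adjusted p of 0.448), and Krtap4-9, at 0.32 ± 0.14 (adjusted p of 0.499), were the others, and their groups overlapped. With both controls in the fit, the 7-day and 3-day groups differed by less than the error where the controls lay furthest apart. Krtap8-1 had -0.29 ± 0.61 (SE), Krtap4-7 0.00 ± 0.55 and Krtap22-2 -0.13 ± 0.57. Those errors also hold the spread of the controls, an SD of 2.74 in Krtap8-1. They therefore cannot show that the PUVA groups were alike in these genes. The genes counted with only the PUVA arrays in the fit are not named here. Among the PUVA arrays alone, Krtap8-1 had a mean of 3.46 ± 0.21 (SD, n = 4) in the 3-day and 3.17 ± 0.13 (SD, n = 4) in the 7-day group. Krtap4-16 had 4.59 ± 0.20 (SD, n = 4) and 4.90 ± 0.14 (SD, n = 4), and Krtap22-2 had 4.36 ± 0.44 and 4.23 ± 0.29.

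Other genes of the hair shaft were also high on control replicate 2. The hair shaft keratins, which form the filaments that the keratin-associated proteins embed, had a list mean of 5.27 and 6.14 in the controls and of 5.05 to 5.27 on the 3-day and 5.14 to 5.27 on the 7-day arrays. Control replicate 2 was above all PUVA arrays in 12 of 15 measured members (background 12.2%). At an unadjusted limma p under 0.05, 11 members were lower (background 4.07%) and 1 higher (background 5.67%) in the 3-day group, and 6 lower (background 2.68%) and 0 higher (background 3.21%) in the 7-day group. The same shares over all genes stand behind the unadjusted counts of the lists that follow, which come from the fit with both controls. A list with 1 or 0 called members is near them. No member passed when adjusted over all genes. Without control replicate 2 the median change moved from -0.49 to -0.16 in the 3-day group. In the 7-day group it was then -0.11 in place of -0.40. Krt33b, a cortex keratin, had 5.62 and 6.77 in the controls and 4.91 to 5.56 on the PUVA arrays, with a fitted change of -1.10 ± 0.26 (SE) in the 7-day group, or -0.52 without control replicate 2. Krt82, a keratin of the hair cuticle, had 5.21 and 5.76 against 4.47 to 5.31, and a fitted change of -0.80 ± 0.18 (SE) in the 3-day group, or -0.53 without control replicate 2. Krt34 had 6.33 and 7.12 against 5.74 to 6.23, and Krt83 had 6.47 and 6.94 against 5.96 to 6.45, both with the 2 controls above all PUVA arrays. The 1 gene that was higher in the 3-day group, Krt36, had 5.14 and 5.77 against 5.42 to 6.46. Its fitted change there was 0.73 ± 0.20 (SE), or 1.04 without control replicate 2. In the 7-day group it was 0.23 ± 0.20 (SE), or 0.54 without control replicate 2.

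The inner root sheath genes, whose products form the sleeve around the growing shaft, had a median difference between the controls of 3.10, against 0.55 for the keratin-associated protein genes, a contrast that was not tested. Their list mean was 5.87 and 8.59 in the controls and 4.52 to 5.08 on the PUVA arrays of both groups. Control replicate 1 was above all PUVA arrays in 7 of 10 members (background 8.32%), and control replicate 2 in 9 (background 12.2%). At an unadjusted limma p under 0.05, 8 of 10 were lower and 0 higher in either group, and none passed when adjusted over all genes. Without control replicate 2 the median change moved from -2.60 to -1.06 in the 3-day group and from -2.63 to -1.08 in the 7-day group. In that fit 1 gene, Krt25, passed in both groups, at -1.68 and -1.89 (limma adjusted p of 0.0246 and 0.00853). Krt71 had 8.04 and 11.47 in the controls against 3.85 to 5.60 on the PUVA arrays, and Krt27 had 6.27 and 9.83 against 3.81 to 4.64. On control replicate 1 these sheath keratins stood clear of the PUVA arrays. On that array 35 of the 51 keratin-associated protein genes lay within the PUVA range (background 82.5%).

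Of 14 other shaft proteins and crosslinking enzymes, 5 were above all PUVA arrays on control replicate 2 (background 12.2%). At an unadjusted limma p under 0.05, 3 were lower and 1 higher in the 3-day group, and 2 lower and 0 higher in the 7-day group. Without control replicate 2 the median change of this list moved from -0.20 to -0.09 in the 3-day group. In the 7-day group it moved from -0.16 to -0.04. S100a3, a calcium-binding protein of the hair cuticle, had 5.34 and 6.63 in the controls and 4.77 to 5.34 on the PUVA arrays. Padi3, which converts arginine to citrulline in trichohyalin, had 4.54 and 6.82 against 4.31 to 4.57. Of 14 transcription factors of the hair matrix and shaft, 7 were above all PUVA arrays on control replicate 2 (background 12.2%). At an unadjusted limma p under 0.05, 3 were lower and 0 higher in the 3-day group, and 4 lower and 0 higher in the 7-day group. Without control replicate 2 the median change of these factors moved from -0.28 to -0.14 in the 3-day group. In the 7-day group it moved from -0.11 to -0.01. Msx2 had 6.20 and 7.06 against 5.82 to 6.16, Cux1 had 8.65 and 9.34 against 8.43 to 8.65, and Hoxc13, known as a regulator of hair keratin genes, had 6.87 and 7.63 against 6.05 to 7.01. No member of either list passed when adjusted over all genes.

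Markers of other cells moved with control replicate 2 as well. The proliferation list had a mean of 7.99 there, 7.35 on control replicate 1, 7.27 to 7.36 on the 3-day and 7.07 to 7.26 on the 7-day arrays. Of its measured members, 9 of 9 were above all PUVA arrays on control replicate 2 (background 12.2%). The melanocyte list had 7.50 there, 6.22 on control replicate 1 and 5.92 to 6.65 over the PUVA arrays. In 7 of its 8 members control replicate 2 was above all PUVA arrays (background 12.2%). No defining marker of these 2 lists was dim on all arrays. On control replicate 2 the bulge list had 2 of 6 members above all PUVA arrays, and the skeletal muscle list 1 of 6. The adipocyte and keratinocyte lists had 0 of 5 and 0 of 7. The background for each list was 12.2%, and the skeletal muscle count was near it. The dermal papilla and fibroblast list had 2 of 8, but it too was higher on control replicate 2 than on replicate 1, with means of 9.14 and 8.49 and a median difference of 0.85. On the 3-day arrays its mean was 8.75 to 9.45, and on the 7-day arrays 8.28 to 8.69. The collagen genes Col1a1, Col1a2 and Col3a1 were 1.25, 1.02 and 0.86 higher on control replicate 2, and were the 3 members higher in the 3-day group at an unadjusted limma p under 0.05. Immunoglobulin genes, made by B and plasma cells, were looked at after the genes high on control replicate 2 were seen. There 19 of 21 measured were above all PUVA arrays (background 12.2%), and 8 of the 21 were dim on all arrays. The 19 include 8 genes already seen above every other array there by more than 1. The count is therefore not independent of that choice. Over all 21 the mean was 4.20 and 5.54 in the controls and 3.98 to 4.37 on the PUVA arrays. Jchain, the joining chain of secreted IgA and IgM, had 4.53 and 7.19 against 3.90 to 5.08. The part of the fibroblast and immunoglobulin genes in the values of the keratin-associated protein genes was not tested.

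**Figure D5:**
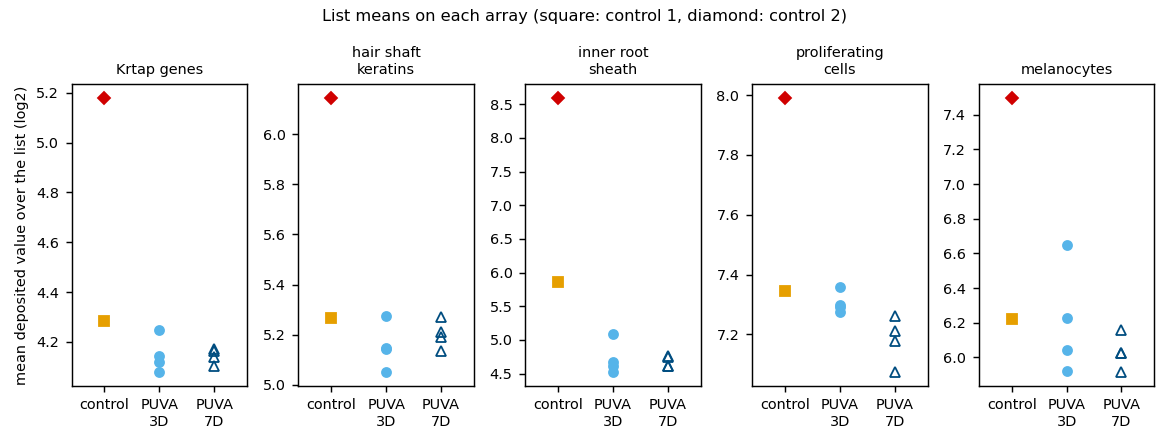
Mean deposited value (y axis, read as log2, a different scale in each panel) over the keratin-associated protein genes, the hair shaft keratins, the inner root sheath genes and the markers of proliferating cells and melanocytes on each array, by group (x axis). Control replicate 2 (diamond) is the highest array in all 5 panels, and control replicate 1 (square) lies among or close to the PUVA arrays, except in the inner root sheath panel.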

How the data were processed

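Gene expression in whole skin was measured on 10 Affymetrix mouse arrays, labelled with the WT PLUS kit per the labels' protocols. The authors deposited 1 value per probe set and array, read here as log2 from their range and made comparable between arrays by a method that the labels do not state. Software and background correction are likewise not given, so signal over background is unknown, and the number of arrays limits the precision. Of 41345 probe sets, those naming 1 gene were kept and the one of highest mean was taken per gene, which left 22180 genes. Groups came from sample titles, and replicates were numbered in accession order. All 10 arrays were fitted together with limma (version 3.58.1, under R 4.3.3; a model of group means with empirical Bayes moderation, 7 residual degrees of freedom), two-sided, with Benjamini-Hochberg adjustment over all genes. The fit was tested on simulated data. A gene was called dim below the 25th percentile of its array. The members and gene lists were chosen with earlier results of these data known. Values in full were to be given for the brightest member of each subfamily, the 8 lowest and 8 highest fitted changes per comparison, and the 2 smallest p in each hair list per comparison with control. Arrays shown in full beyond that were chosen after their values were seen. Neighbourhoods are the chromosomes given by RefSeq's GRCm38.p6. A grouping by protein composition was planned and not run, because protein sequences were not used here.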

Additional observations from a re-analysis of the deposited data

Results flagged for a closer look

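A single array lay apart from the other 3 of its group in 5 of 102 combinations of a gene and a PUVA group, about the number that chance gives, which is 1 in 20. The median over the 51 genes was screened in the same way in both PUVA groups, and no array stood out. Krtap9-1 was 7.52 on 7-day replicate 4, against 7.25 to 7.29 on the others. Krtap9-5 was 4.99 on 3-day replicate 1, against 4.54 to 4.58. Krtap14 was 2.78 on 3-day replicate 4, against 3.11 to 3.18, and 2.90 on 7-day replicate 3, against 3.28 to 3.34. Krtap31-1 was 3.55 on 7-day replicate 1, against 4.01 to 4.08. No array appears more than once among these 5. The control group, with 2 arrays, could not be screened in this way.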

How the results depend on the processing

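The medians of the 51 genes kept their direction against control under all 18 alternatives, at -0.50 to -0.14 when 1 array was left out and -0.39 to -0.32 otherwise for the 3-day group, and at -0.52 to -0.15 and -0.35 to -0.27 for the 7-day group. The median of the 7-day against the 3-day group stayed near 0, at -0.02 to 0.06. Counts of genes lower at an unadjusted limma p under 0.05 ran from 7 to 29 in the 3-day and 7 to 28 in the 7-day group when 1 array was left out, both lowest without control replicate 2. With the lowest 30% of genes by mean left out, 14 of the 51 genes were tested, and 9 and 4 were lower. The count between the PUVA groups, 3 in the main analysis, was 6 with only those arrays in the fit and 2 to 6 when 1 array was left out. The counts at an adjusted p of 0.05 against control ran from 0 to 19 in either group, with 19 only without control replicate 1 and 0 under the other alternatives, and that between the PUVA groups was 0 to 0. No paired analysis was possible because the labels give no replicate numbers shared between groups. The low signal of most of these genes limits the size of any difference that could be seen.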

Other observations

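Probe sets that name several genes were left out of the comparisons, and 10 of them name a keratin-associated protein gene. On control replicate 2 the value was above all PUVA arrays in 9 of the 10, against 12.2% of the 22180 genes. On control replicate 1 it was above them in 5, against 8.32% of the genes. The probe set shared by Krtap6-1, Gm10228 and 1110025L11Rik had 6.81 and 9.74 on control replicates 1 and 2 and 5.83 to 6.58 on the PUVA arrays. Krtap15, which shares its probe set with 4930553J12Rik, had 4.79 and 6.55 against 4.25 to 4.70. Krtap3-2 and Krtap3-3 share a pair of probe sets that disagreed, with 5.09 and 6.67 against 4.42 to 5.46 on the first, and 7.49 and 7.20 against 6.79 to 7.58 on the second.

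In RefSeq's gene order, 26 measured genes lie between keratin-associated protein genes, and most carry only a provisional name. Some of them are also named on a probe set shared with a member, such as Gm7138 with Krtap10-4 and Gm10228 with Krtap6-1. The counts over these genes may therefore not be independent of the 51 genes. Control replicate 2 was above all PUVA arrays in 14 of them (background 12.2%) and control replicate 1 in 5 (background 8.32%). Gm11595 had 4.14 and 6.65 in the controls and 3.27 to 4.66 on the PUVA arrays. Gm11559 had 4.26 and 6.53 against 4.00 to 4.26, Gm11567 had 4.88 and 6.83 against 3.86 to 4.52, and Gm4559 had 6.07 and 7.08 against 5.61 to 5.94. These 4 were above every other array by more than 1 on control replicate 2 (background 0.316%).

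Control replicate 2 was above all 9 other arrays by more than 1 in 70 of all 22180 genes. Of these, 17 were keratin-associated protein genes, 9 inner root sheath genes, 4 hair shaft keratins (Krt33a, Krt33b, Krt35 and Krt87), 4 melanocyte markers (Dct, Tyr, Tyrp1 and Pmel), 3 other shaft proteins (Padi3, S100a3 and Dsg4) and 1 a transcription factor of the hair matrix, Lef1. The other 32 were in none of the lists. Among them were 8 immunoglobulin genes, namely Igkj1, Jchain and 6 variable-region genes of the kappa light chain.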
